A study of Homo sapiens with 12 samples.

Results

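A set of 10 genes of the heat shock chaperone system was followed in bone-seeking breast cancer cells. They are HSPA6, HSPA8, HSPA5, HSPA4, HSPH1, DNAJB1, BAG3, HSP90AA1, HSPB1 and HSPD1. Each was read from a probe set (a group of array probes summarised as 1 value) that the platform annotation assigns to that gene alone. All 10 had exactly 1 such probe set, and they are 10 of 18417 genes measured this way. RNA came from the 1833 subline of MDA-MB-231, a human breast cancer line, and was hybridised to Affymetrix Human Gene 1.0 ST arrays. Values are on the log2 scale, so a difference of 1 is a doubling.

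The shHMGA2 cells (3 arrays) carried a lentiviral pLKO.1 vector with an shRNA against HMGA2 and were kept in puromycin. The Tet1 cells (2 arrays) carried pLVX-TRE3G-Flag-Tet1, and the HOXA9 cells (2 arrays) carried pLVX-TRE3G-HOXA9. Both also held pCMV-Tet3G for the Tet-On 3G regulator, were selected in puromycin and G418, and grew in tetracycline-approved serum. Their labels call the transgene induced, while the inducer, its dose and its duration are not given in the sources used here. Control cells (3 arrays) were 1833 cells for which the labels name no vector. The labels call the samples biological replicates without saying whether a line was a clone or a pool, so p-values measure only the spread between these arrays. For the Tet1 and HOXA9 samples the source name reads 1834, whereas title and cell line read 1833.

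Heat shock proteins are molecular chaperones, which bind unfolded or partly folded proteins and keep them from aggregating. HSP70 proteins work in a cycle of ATP binding: J-domain proteins such as DNAJB1 deliver the client and speed ATP use, and exchange factors such as HSPA4, HSPH1 and BAG3 release it. When unfolded protein builds up in the cytosol, the transcription factor HSF1 binds heat shock elements, arrays of alternating GAA and TTC units, and drives HSPA6, the HSPA1 genes, DNAJB1, HSPB1 and others. HSPA6 is known for very low expression in unstressed human cells and strong induction by heat or proteotoxic stress. HSPA5 (BiP) serves the endoplasmic reticulum and is driven through ER stress elements by the unfolded protein response. HSPD1 (HSP60) folds proteins in mitochondria.

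The promoter bases upstream of each start show which members carry these elements, so those of 6 members are printed here. All come from RefSeq annotation of build GRCh38.p14, 5′ to 3′ on the gene's strand, and cover the 250 bases before a start. Capitals mark the heat shock motif GAANNTTC, the longer heat shock element of 3 alternating units, the ER stress element, or CCAAT on either strand (ATTGG on the other).
HSPA6 (chr1:161524290-161524539, plus strand): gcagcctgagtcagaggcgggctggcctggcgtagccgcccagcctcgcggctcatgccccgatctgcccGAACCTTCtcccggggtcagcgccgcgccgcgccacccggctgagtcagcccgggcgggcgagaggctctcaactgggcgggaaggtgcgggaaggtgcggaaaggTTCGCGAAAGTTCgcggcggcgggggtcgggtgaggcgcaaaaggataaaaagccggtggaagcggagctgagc
HSPA8 (chr11:123062137-123062386, minus strand): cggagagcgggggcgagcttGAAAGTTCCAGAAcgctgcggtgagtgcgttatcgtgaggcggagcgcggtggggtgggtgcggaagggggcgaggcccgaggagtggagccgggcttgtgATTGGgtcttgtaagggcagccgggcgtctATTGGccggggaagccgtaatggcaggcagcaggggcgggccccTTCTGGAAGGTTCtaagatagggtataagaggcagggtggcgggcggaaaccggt
DNAJB1, start 2 of 3 (chr19:14518398-14518647, minus strand): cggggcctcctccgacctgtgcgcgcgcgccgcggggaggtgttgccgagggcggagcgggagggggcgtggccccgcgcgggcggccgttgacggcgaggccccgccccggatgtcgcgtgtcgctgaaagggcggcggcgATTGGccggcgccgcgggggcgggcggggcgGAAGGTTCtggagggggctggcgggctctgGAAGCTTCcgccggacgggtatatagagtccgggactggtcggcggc
HSPB1 (chr7:76302423-76302672, plus strand): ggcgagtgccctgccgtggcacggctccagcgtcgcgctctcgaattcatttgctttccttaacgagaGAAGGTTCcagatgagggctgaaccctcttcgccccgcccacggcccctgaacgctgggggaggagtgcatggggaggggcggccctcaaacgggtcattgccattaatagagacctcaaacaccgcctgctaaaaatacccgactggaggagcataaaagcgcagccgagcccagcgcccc
HSPA5 (chr9:125241344-125241593, minus strand): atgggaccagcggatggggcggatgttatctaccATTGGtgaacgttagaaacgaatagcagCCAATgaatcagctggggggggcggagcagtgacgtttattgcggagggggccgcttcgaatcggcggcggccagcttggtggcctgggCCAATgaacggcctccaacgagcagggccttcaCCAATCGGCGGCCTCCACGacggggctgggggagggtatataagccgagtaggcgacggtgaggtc
HSPD1, start 2 of 2 (chr2:197499841-197500090, minus strand): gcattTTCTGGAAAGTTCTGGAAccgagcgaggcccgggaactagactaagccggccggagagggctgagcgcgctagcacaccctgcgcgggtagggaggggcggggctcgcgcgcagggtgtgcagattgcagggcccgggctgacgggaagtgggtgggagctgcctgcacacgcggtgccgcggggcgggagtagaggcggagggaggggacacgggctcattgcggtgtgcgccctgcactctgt

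GAANNTTC, which reads the same on both strands, lay in 6 of the 14 annotated promoters of the 10 members, 1 in each of 6 genes, against 5.78% of all 35116 RefSeq promoters. In HSPA6 it stood at -180 to -173 and again at -69 to -62, where it overlaps the 3-unit element at -74 to -62. That 3-unit element, which always contains GAANNTTC, was found in 4 of the 14, those of HSPA6, HSPA8, HSPD1 and HSP90AA1, against 0.44% of all promoters. HSPB1 and DNAJB1 held GAANNTTC without it. HSPA5 was the single member with an ER stress element, at -66 to -48, against 0.07% of all promoters. TATAAA was in 0 of the 14 (10.72% of all), and CCAAT was in 6 of the 14, from 4 members (32.01% of all). These are letter matches within 250 bases, and binding of a factor was not measured.

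The arrays fell into 2 sets. Correlations over all probe sets were 0.986 to 0.998 among shHMGA2 and control arrays, 0.993 to 0.997 among Tet1 and HOXA9 arrays, and 0.945 to 0.966 between the sets. Array medians were 7.66 to 7.71 in the Tet1 and HOXA9 set, against 7.21 to 7.28 in the other. Lower quartiles were 6.22 to 6.25 against 5.75 to 5.76. Upper quartiles were nearly equal, at 9.22 to 9.29 against 9.19 to 9.24. All members but HSPA6 were bright, with means at percentiles 89.4 to 99.9 of all probe sets. No group lies in both sets, so array set, serum, selection, parent subline and transgene cannot be told apart when Tet1 or HOXA9 is set against control. Each such difference was therefore recomputed with all array medians made equal and with 1 quantile normalization of all arrays. Equal medians move every probe set of an array by the same amount, bright ones included. The median difference of all genes was 0.25 with deposited values, -0.22 with equal medians and 0 with quantile normalization for Tet1 against control, and 0.24, -0.21 and -0.02 for HOXA9 against control. The targeted genes were checked first. The TET1 probe set read 8.72, 8.92 and 9.29 in shHMGA2 arrays, 7.16 and 6.98 in Tet1 arrays, 7.20 and 7.40 in HOXA9 arrays and 6.59, 6.45 and 6.66 in control arrays, so the Tet1 arrays stood no higher than the HOXA9 arrays. Whether its probes lie within the transgene was not tested, so those arrays are called arrays labelled Tet1 from here on. HMGA2 shares its probe set with ELAC2, and that probe set read 8.93, 9.02 and 8.47 in shHMGA2 arrays against 9.55, 9.65 and 9.48 in control arrays (limma log2 difference -0.75, SE 0.12, adjusted p = 0.0032 over all probe sets). HOXA9 expression was not analysed here.

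The cell type was read from its markers. VIM and CD44, which mark this mesenchymal line, averaged 12.68 and 12.67 in shHMGA2 arrays, 13.47 and 12.45 in arrays labelled Tet1, 13.53 and 12.42 in HOXA9 arrays, and 12.84 and 12.92 in control arrays. Of 10 epithelial and luminal markers, CDH1 and PGR lay between 5.53 and 6.04 in all groups, under the level of 6.26 that marks the lowest 30% of probe sets and is called dim here. ESR1 averaged 5.95 in shHMGA2, 6.95 in Tet1-labelled, 6.96 in HOXA9 and 6.05 in control arrays. The other 7 (ERBB2, GATA3, FOXA1, KRT19, SPDEF, TFF1 and EPCAM) lay above the dim level in every group. KRT19, for example, averaged 10.25 in shHMGA2, 11.68 in Tet1-labelled, 11.63 in HOXA9 and 11.12 in control arrays. In bulk RNA, fewer cells of a type and less RNA per cell cannot be told apart.

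Against control, HSPA6 was the member with the largest difference in both transgene lines. It was 12.9-fold higher in arrays labelled Tet1 and 11.5-fold higher in HOXA9 arrays, with control near the dim level. DNAJB1, HSPB1 and HSPA5 were also higher, by 1.86-fold, 2.16-fold and 1.61-fold in arrays labelled Tet1 and by 1.66-fold, 1.67-fold and 1.33-fold in HOXA9 arrays. HSPD1 was lower by 1.64-fold and 1.63-fold, and HSPA4 and HSPH1 were lower by smaller amounts. With limma and Benjamini-Hochberg adjustment over 18417 genes, all 10 members passed an adjusted p of 0.05 in each of these comparisons, 7 higher and 3 lower. The background is very high: 77.1% of all genes passed for Tet1 (53.9% higher, 23.2% lower) and 75.7% for HOXA9 (54% higher, 21.6% lower), so 10 of 10 stands close to what most genes did. The groups of all 10 members did not overlap in either comparison, as was so for 85.7% and 82.8% of all genes. The members' median difference was 0.36 in both, against 0.25 and 0.24 over all genes.

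Under both other scalings, 6 of 10 members kept direction and call for arrays labelled Tet1 (HSPA6, DNAJB1, HSPB1 and HSPA5 higher, HSPD1 and HSPH1 lower), where 41.5% of all genes did. For HOXA9 arrays the 6 were HSPA6, DNAJB1 and HSPB1 higher, and HSPD1, HSPH1 and HSPA4 lower, where 38.5% of all genes did. HSPA8, HSP90AA1 and BAG3 did not keep theirs in either comparison. Both comparisons use the same 3 control arrays. Of all genes called for Tet1, 69.9% were higher with the deposited values, 29.9% with equal medians and 49.4% with quantile normalization, and for HOXA9 the shares were 71.4%, 28.4% and 46.6%.

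**Figure D1:**
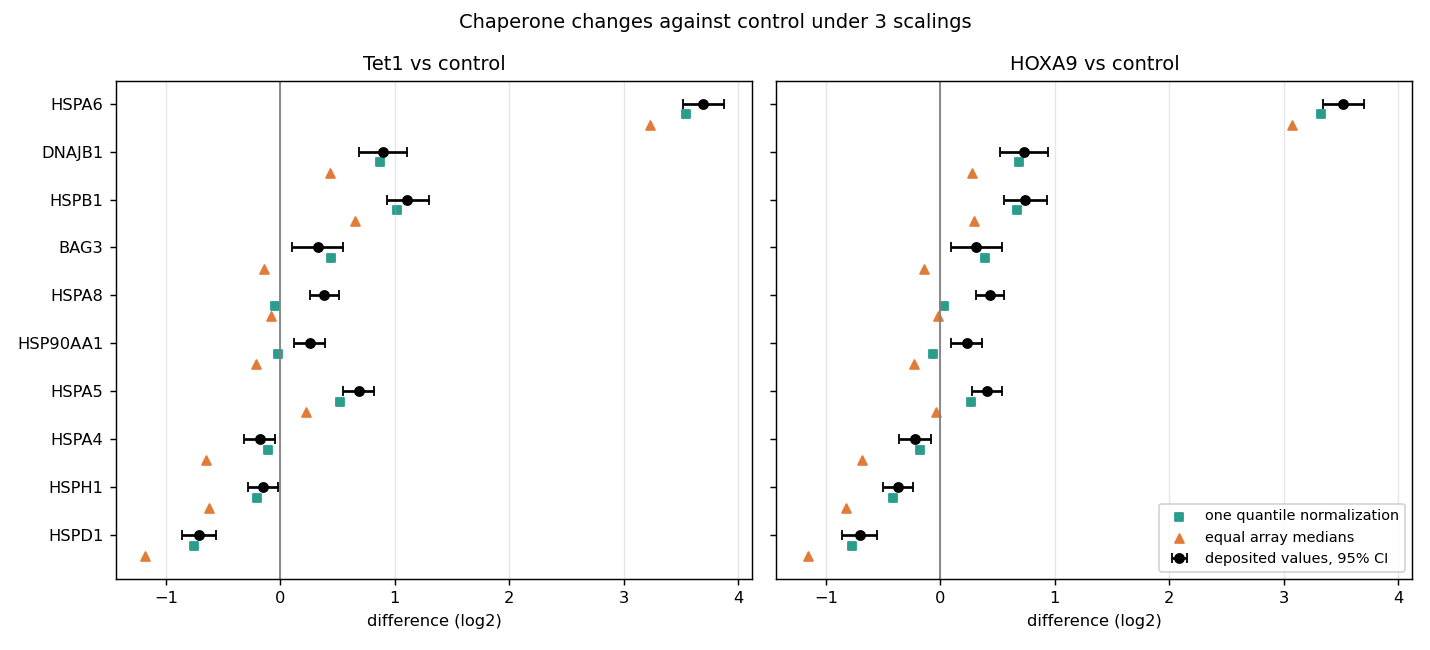
Log2 difference of the 10 chaperone genes for Tet1 against control and HOXA9 against control, with deposited values (black points, bars for 95% confidence intervals from limma) and under both other scalings (coloured markers). HSPA6 lies above 3 in every setting, whereas HSPA8, HSP90AA1 and BAG3 lie on different sides of 0 depending on the scaling.

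HSPA6, the strictly inducible HSP70 of human cells, read 10.07 and 9.98 in arrays labelled Tet1 and 9.90 and 9.81 in HOXA9 arrays. It read 6.20, 6.44 and 6.27 in shHMGA2 arrays and 6.41, 6.33 and 6.26 in control arrays. The gene was thus at about the dim level of 6.26 in the shHMGA2 and control set and well above it in every array of the other set. The fitted difference from control was 3.69 (SE 0.08, adjusted p = 5.4e-11) for arrays labelled Tet1 and 3.52 (SE 0.08, adjusted p = 9.4e-11) for HOXA9. The 95% intervals were 3.52 to 3.87 and 3.34 to 3.7, and with control so close to the dim level the fold is uncertain. The difference was 3.23 and 3.54 for arrays labelled Tet1, and 3.07 and 3.32 for HOXA9 arrays, with equal medians and with quantile normalization. For shHMGA2 the difference from control was -0.03 with a 95% confidence interval of -0.19 to 0.13.

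HSPA7, a close relative of HSPA6 annotated as a pseudogene, has a probe set that the platform assigns to both genes. This shared probe set read 10.45 and 10.35 in arrays labelled Tet1, 9.82 in each of 2 HOXA9 arrays, 8.26, 8.41 and 8.22 in shHMGA2 arrays and 8.42, 8.46 and 8.35 in control arrays. The difference from control was 1.99 (SE 0.07, adjusted p = 9.3e-08) for arrays labelled Tet1 and 1.41 (SE 0.07, adjusted p = 5.1e-07) for HOXA9, where adjustment ran over all 33297 probe sets, of which 73.3% and 71.6% passed. Arrays labelled Tet1 stood 0.58 above HOXA9 arrays (SE 0.08, adjusted p = 0.026), where 0.207% of probe sets passed, and this call was lost when any of those 4 arrays was left out (adjusted p 0.063 to 0.28). The shHMGA2 difference was -0.11 (adjusted p = 0.31).

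HSPA1A and HSPA1B, the main stress-inducible HSP70 genes, are near-identical and share 5 probe sets, so the genes cannot be read apart and the probe sets are not independent. The first read 12.81 and 12.90 in arrays labelled Tet1, 12.51 and 12.47 in HOXA9 arrays, 12.19, 12.40 and 11.90 in shHMGA2 arrays, and 11.76, 11.81 and 11.83 in control arrays. Another read 12.34 and 12.28 in arrays labelled Tet1, 11.81 and 11.80 in HOXA9 arrays, 10.58, 10.93 and 10.30 in shHMGA2 arrays, and 10.18, 10.19 and 10.19 in control arrays. In both, every array of the 3 modified lines stood above every control array. Over the 5 probe sets the difference from control was 1.00 to 2.12 for arrays labelled Tet1 (adjusted p 1.5e-06 to 4.8e-05) and 0.62 to 1.62 for HOXA9 (adjusted p 7.4e-06 to 0.0011). With equal medians the HOXA9 difference of 2 of the 5 was 0.23 and 0.17 and no longer passed.

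Unlike HSPA6, the HSPA1 probe sets also stood higher in shHMGA2 arrays, by 0.36 to 0.42 (SE 0.11 to 0.13). Of the 5, 1 passed (adjusted p = 0.048) and 4 did not (0.053 to 0.055), where 15.6% of all probe sets passed. The 1 call, of the first probe set given above, was lost without any array but shHMGA2 replicate 3 (lowest difference 0.24, without shHMGA2 replicate 2, adjusted p = 0.12). Without shHMGA2 replicate 3 all 5 passed, at 0.49 to 0.57 (adjusted p 0.0043 to 0.0065). With equal medians 0 of 5 passed (adjusted p 0.078 to 0.087), and with quantile normalization 3 of the other 4 did (0.046 to 0.047). In the 2 probe sets given above, shHMGA2 replicate 2 was the highest of its group and replicate 3 the lowest. Arrays labelled Tet1 stood 0.36 to 0.50 above HOXA9 arrays, and none of the 5 passed (adjusted p 0.32 to 0.41).

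**Figure D2:**
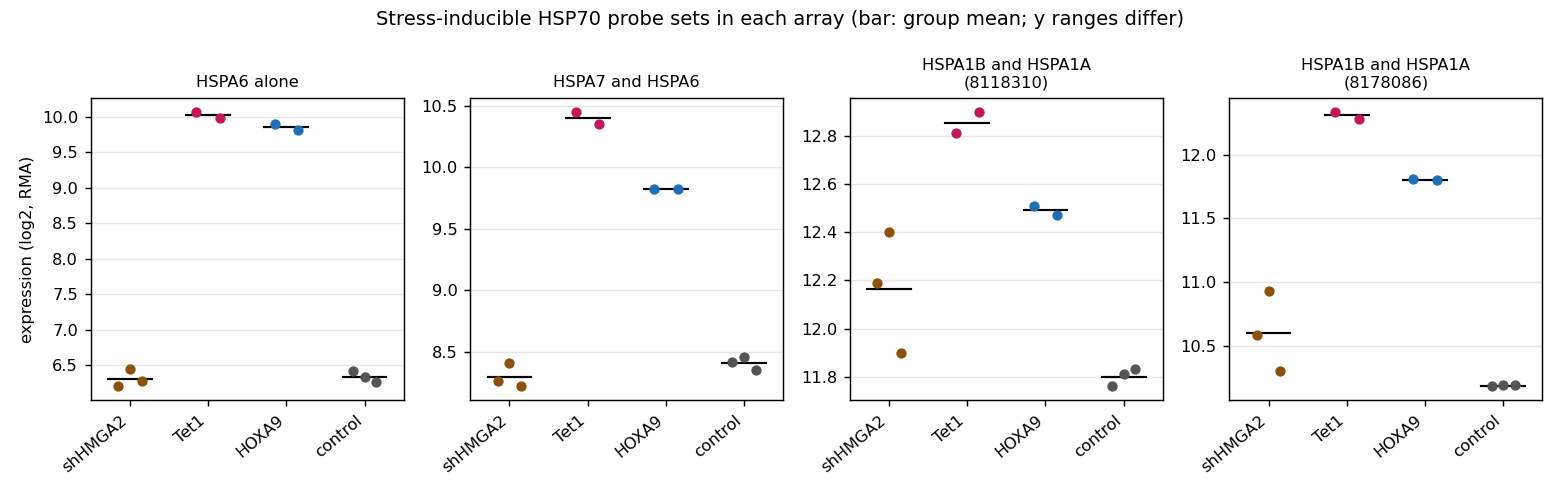
Log2 expression of the stress-inducible HSP70 probe sets in each of the 10 arrays (points) with group means (bars), ordered shHMGA2, Tet1, HOXA9, control. HSPA6 shows 1 step between the array sets, while the probe sets of HSPA1A and HSPA1B also stand above control in all 3 shHMGA2 arrays.

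HSPA8, the constitutive HSP70 of the cytosol (HSC70), read 14.04 and 14.08 in arrays labelled Tet1, 14.10 and 14.13 in HOXA9 arrays, 13.67, 13.68 and 13.64 in shHMGA2 arrays, and 13.70, 13.68 and 13.65 in control arrays. It had the smallest within-group SD of the members, 0.02, against a median of 0.09 over all genes. The step between the array sets was 0.38 for arrays labelled Tet1 (adjusted p = 5.4e-05) and 0.43 for HOXA9 (adjusted p = 2.2e-05). It did not keep its sign: it was -0.08 and -0.02 with equal medians, and -0.05 and 0.03 with quantile normalization. For shHMGA2 the difference was -0.01, with a 95% interval of -0.12 to 0.10.

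HSPA5, the HSP70 of the endoplasmic reticulum whose promoter carries the ER stress element printed above, read 12.91 and 12.98 in arrays labelled Tet1 and 12.63 and 12.71 in HOXA9 arrays. It read 12.32, 12.30 and 12.33 in shHMGA2 arrays and 12.23, 12.23 and 12.32 in control arrays. Both transgene lines stood above control without overlap, and the arrays labelled Tet1 stood above the HOXA9 arrays. Against control it differed by 0.69 (SE 0.06, adjusted p = 1e-06) for arrays labelled Tet1 and 0.41 (SE 0.06, adjusted p = 6.8e-05) for HOXA9. With equal medians it was 0.22 for arrays labelled Tet1, still past the threshold, and -0.04 (adjusted p = 0.57) for HOXA9. The shHMGA2 difference was 0.06, with an interval of -0.06 to 0.18.

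DNAJB1, the J-domain partner that loads clients onto inducible HSP70, read 12.29 and 12.23 in arrays labelled Tet1 and 12.10 and 12.08 in HOXA9 arrays. It read 11.17, 11.45 and 11.07 in shHMGA2 arrays and 11.30, 11.39 and 11.39 in control arrays. The shHMGA2 arrays overlapped control and had the widest spread (SD 0.20), with replicate 2 again the highest. Set against control, it was higher by 0.90 (SE 0.10, adjusted p = 4.2e-06) for arrays labelled Tet1 and 0.73 (SE 0.10, adjusted p = 2.5e-05) for HOXA9. It was 0.43 and 0.28 with equal medians, and 0.87 and 0.69 with quantile normalization. For shHMGA2 the difference was -0.13 (interval -0.32 to 0.05, adjusted p = 0.31). Without shHMGA2 replicate 2 it was -0.24 and passed (adjusted p = 0.024), and without replicate 3 it was -0.05.

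BAG3 binds HSP70, triggers client release and links chaperones to selective autophagy. It read 10.97 and 10.89 in arrays labelled Tet1, 10.84 and 10.99 in HOXA9 arrays, 10.41, 10.35 and 10.11 in shHMGA2 arrays, and 10.75, 10.48 and 10.57 in control arrays. The order was thus both transgene lines above control and shHMGA2 below it. BAG3 differed from control by 0.33 for arrays labelled Tet1 (SE 0.10, adjusted p = 0.011) and 0.31 for HOXA9 (SE 0.10, adjusted p = 0.014). With quantile normalization it stayed higher and called in both. With equal medians it was -0.14 in both and not called, so its direction across the array sets depends on the scaling. The call was also lost without Tet1 replicate 1 (0.29, adjusted p = 0.083) and, for HOXA9, without control replicate 2 (0.26, adjusted p = 0.052) or HOXA9 replicate 2 (0.24, adjusted p = 0.12). BAG3 fell in shHMGA2 by 0.31 (SE 0.09, interval -0.51 to -0.11, adjusted p = 0.025), which is 1.24-fold lower, and by 0.24 (adjusted p = 0.096) without control replicate 1 and 0.22 (adjusted p = 0.097) without shHMGA2 replicate 3.

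HSPA4 and HSPH1 belong to the HSP110 family of exchange factors, and HSPH1 also slows protein aggregation. HSPA4 read 11.10 and 11.15 in arrays labelled Tet1, 11.04 and 11.13 in HOXA9 arrays, 11.45, 11.48 and 11.52 in shHMGA2 arrays, and 11.25, 11.37 and 11.31 in control arrays. HSPH1 read 11.79 and 11.85 in arrays labelled Tet1, 11.55 and 11.65 in HOXA9 arrays, 11.85, 11.89 and 11.88 in shHMGA2 arrays, and 11.95, 11.97 and 11.99 in control arrays. In the transgene lines both genes lay below control while HSPA6, DNAJB1 and HSPB1 lay above it. HSPA4 was lower by -0.18 (adjusted p = 0.018) in arrays labelled Tet1, a call not kept with quantile normalization (-0.11, adjusted p = 0.12), and by -0.22 (adjusted p = 0.0067) in HOXA9 arrays. HSPH1 was lower by -0.15 (adjusted p = 0.037) in arrays labelled Tet1 and by -0.37 (SE 0.06, adjusted p = 0.00013) in HOXA9 arrays. Equal medians made the differences larger, at -0.65 and -0.68 for HSPA4 and -0.62 and -0.82 for HSPH1. In shHMGA2 arrays HSPA4 stood 0.17 above control (SE 0.06, adjusted p = 0.041), and HSPH1 differed by -0.10 (adjusted p = 0.23). The HSPA4 and HSPH1 calls were fragile. For Tet1, HSPA4 was lost without control replicate 2 (-0.16, adjusted p = 0.062) or Tet1 replicate 1 (-0.16, adjusted p = 0.11). HSPH1 was lost there without control replicate 2 or 3 or either array labelled Tet1 (-0.12 to -0.18, adjusted p 0.064 to 0.20). For HOXA9, HSPA4 was lost without HOXA9 replicate 1 (-0.18, adjusted p = 0.06), and its shHMGA2 call was lost without any single array but control replicate 2 (0.14 to 0.19, adjusted p 0.059 to 0.13).

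HSP90AA1, the stress-responsive isoform of cytosolic HSP90, which matures kinases and steroid receptors, read 13.24 and 13.28 in arrays labelled Tet1 and 13.16 and 13.29 in HOXA9 arrays. It read 13.02, 13.06 and 13.06 in shHMGA2 arrays and 13.01, 13.04 and 12.96 in control arrays. The difference from control was 0.26 (adjusted p = 0.0025) for arrays labelled Tet1 and 0.23 (adjusted p = 0.0058) for HOXA9. It was -0.21 and -0.23 with equal medians, both past the threshold, and -0.02 and -0.06 with quantile normalization, so no direction can be given for it across the array sets. Without HOXA9 replicate 2 the HOXA9 difference was 0.16 (adjusted p = 0.062). For shHMGA2 it was 0.04, with an interval of -0.08 to 0.17.

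HSPB1, the small heat shock protein HSP27 that holds unfolded clients without ATP, read 12.74 and 12.72 in arrays labelled Tet1 and 12.40 and 12.31 in HOXA9 arrays. It read 11.49, 11.32 and 11.20 in shHMGA2 arrays and 11.71, 11.58 and 11.56 in control arrays. It was thus highest in arrays labelled Tet1, next in HOXA9 arrays, and lowest in shHMGA2 arrays, with no overlap between neighbours in that order. The difference from control was 1.11 (SE 0.08, adjusted p = 3.4e-07) for arrays labelled Tet1 and 0.74 (SE 0.08, adjusted p = 8.4e-06) for HOXA9, and both stayed above 0 with equal medians (0.65 and 0.29). HSPB1 fell in shHMGA2 by 0.28 (SE 0.08, interval -0.45 to -0.12, adjusted p = 0.017), 1.21-fold lower. Without control replicate 1 it fell by 0.23 (adjusted p = 0.066), and without shHMGA2 replicate 3 by 0.21 (adjusted p = 0.068).

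HSPD1, the mitochondrial chaperonin, moved the other way. It read 11.58 and 11.71 in arrays labelled Tet1, 11.61 and 11.69 in HOXA9 arrays, 12.53, 12.52 and 12.56 in shHMGA2 arrays, and 12.37, 12.44 and 12.26 in control arrays. Arrays of both transgene lines lay far below control although the median gene lay above it. The difference from control was -0.71 (SE 0.07, adjusted p = 2.5e-06) for arrays labelled Tet1 and -0.70 (SE 0.07, adjusted p = 3e-06) for HOXA9, and it was -1.18 and -1.16 with equal medians. Of the 4 members with a 3-unit heat shock element, HSPA6 was higher and HSPD1 lower under every scaling, and HSPA8 and HSP90AA1 turned with it. For shHMGA2 the difference was 0.18 (SE 0.06, interval 0.04 to 0.32), which did not pass (adjusted p = 0.06) although the groups did not overlap. It passed without control replicate 2 (0.22, adjusted p = 0.04).

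**Figure D3:**
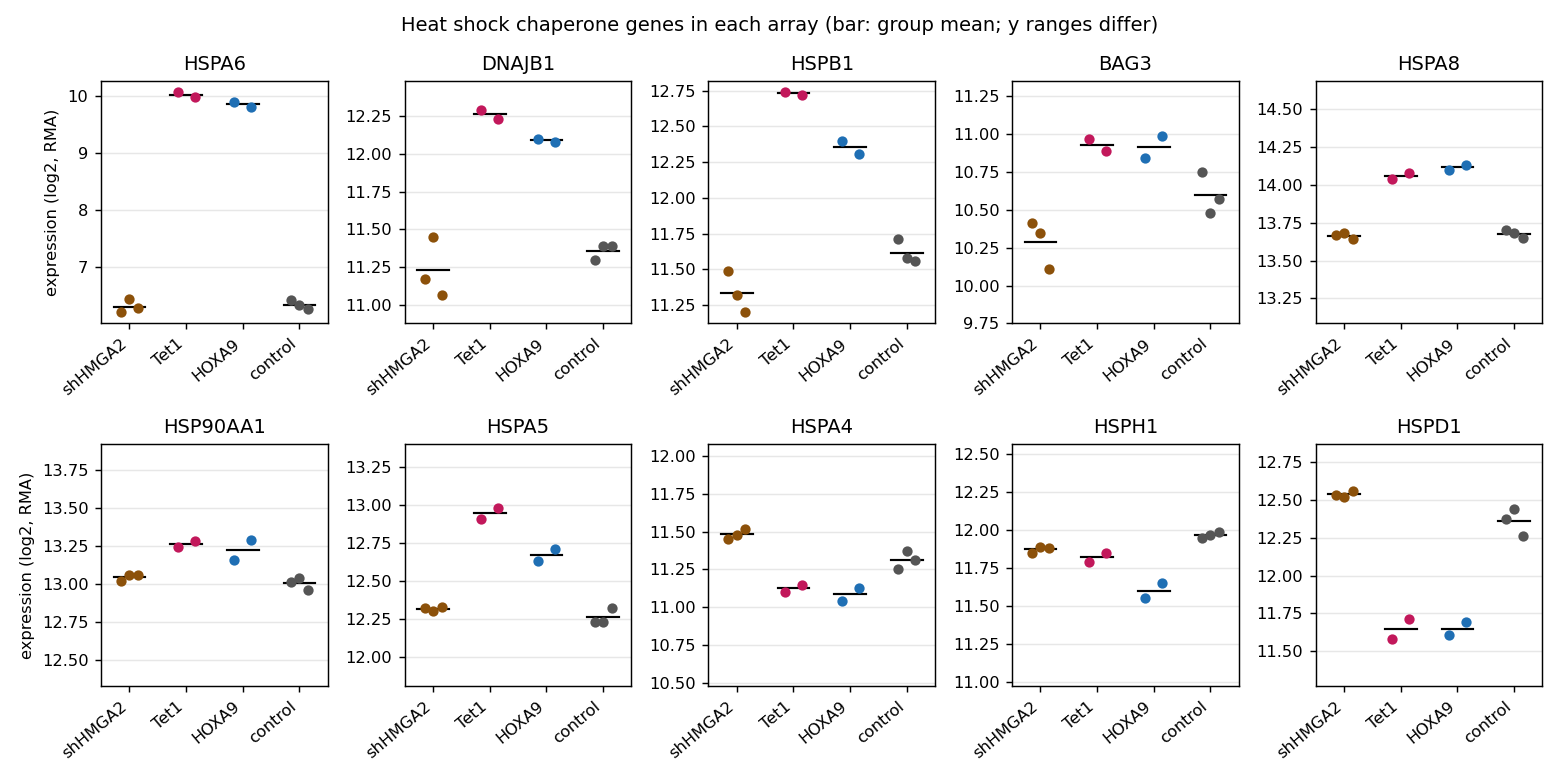
Log2 expression of each of the 10 chaperone genes in each array (points) with the group mean (bar), groups ordered shHMGA2, Tet1, HOXA9, control and a y range of its own for each gene. HSPA6, DNAJB1, HSPB1 and HSPA5 are higher and HSPD1 lower in all 4 arrays labelled Tet1 or HOXA9 than in control.

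Within the set that holds shHMGA2 and control, the members differed little. HSPB1 and BAG3 fell and HSPA4 rose, and the other 7 did not pass, HSPA6 among them. That is 3 of 10 against a background of 26.2% of all genes (13.6% higher, 12.6% lower), so the share of members was near the background. The groups did not overlap for 5 of 10 members, against 40.5% of all genes, and the members' median difference was -0.02, against -0.03 over all genes. These calls rested on single arrays: no member passed without control replicate 1 or without shHMGA2 replicate 3. HSPB1 and BAG3 kept their calls under both other scalings, as did 23.7% of all genes, and HSPA4 did not with equal medians. Of all genes called, 51.9% were higher with the deposited values, 43.4% with equal medians and 47.5% with quantile normalization.

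Markers of other cells also differed between these groups. Of 13 genes typical of the kidney-derived line HEK293, 9 were higher and 0 lower in shHMGA2, and their summed linear level was 6550 to 8985 in shHMGA2 arrays against 1379 to 1496 in control arrays. Of 10 measured MDA-MB-231 markers, 1 was higher and 7 lower, with sums of 33570 to 40246 in shHMGA2 arrays against 45496 to 46053 in control arrays. Luminal markers were 0 higher and 3 lower of 10, KRT19 (-0.87) and SPDEF (-1.24) among them, with sums of 2590 to 3051 in shHMGA2 arrays against 4078 to 4513 in control arrays. Of 8 fibroblast markers 0 were higher and 1 lower, and of 5 measured blood cell markers likewise 0 and 1. The part of these in the chaperone differences was not tested.

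In the transgene lines the marker lists moved as well, where most genes did. These marker counts and sums are given with deposited values only. With equal medians the median difference of all genes went from 0.25 to -0.22 for Tet1 and from 0.24 to -0.21 for HOXA9. The marker directions may therefore depend on the scaling. Of all genes, 53.9% were called higher and 23.2% lower for Tet1, and 54% and 21.6% for HOXA9. Fibroblast markers were higher for 7 of 8 in both lines, with summed levels of 1920 to 1934 in arrays labelled Tet1, 1444 to 1514 in HOXA9 arrays and 828 to 890 in control arrays. All 5 measured blood cell markers were called higher in both. Of these, PTPRC averaged 5.22 in arrays labelled Tet1, 5.21 in HOXA9 arrays and 4.91 in control arrays, all dim. CD3E averaged 6.29, 6.27 and 6.02 in the same order, close to the dim level. The fibroblast markers DCN and FAP were dim in every group. Luminal markers were 5 higher and 2 lower for Tet1 (sums of 5290 to 5614) and 4 and 1 for HOXA9 (5357 to 5499), against 4078 to 4513 in control arrays. MDA-MB-231 markers were 6 higher and 3 lower in both, with sums of 52012 to 52565 in arrays labelled Tet1, 50970 to 52795 in HOXA9 arrays and 45496 to 46053 in control arrays. HEK293 traits were 7 higher and 2 lower for Tet1 (sums of 1667 to 1703) and 6 higher and 4 lower for HOXA9 (1548 to 1692), against 1379 to 1496 in control arrays. Their part in the chaperone differences was not tested.

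Arrays labelled Tet1 and HOXA9 arrays come from 1 array set, so their contrast does not cross the step between the sets. No member passed in it (limma, adjusted p 0.15 to 0.99), where 0.434% of all genes passed and 1687 genes, HSPA5, HSPB1 and HSPH1 among them, had an unadjusted p under 0.05. HSPB1 differed by 0.37 (SE 0.09, interval 0.17 to 0.57, adjusted p = 0.15), HSPA5 by 0.28 (SE 0.07, interval 0.13 to 0.42, adjusted p = 0.15), and HSPH1 by 0.22 (SE 0.07, interval 0.08 to 0.36, adjusted p = 0.24). These 3 were higher in both arrays labelled Tet1 than in both HOXA9 arrays. The interval for HSPA6 was -0.02 to 0.37, for DNAJB1 -0.06 to 0.40, for HSPA8 -0.18 to 0.08 and for HSPD1 -0.17 to 0.16. These intervals include 0, and with 2 arrays a group differences within them stay undecided. Groups did not overlap for 6 of 10 members, against 41.3% of all genes. With limma's trended and robust variance HSPA5 passed (adjusted p = 0.032). Of all genes called in this contrast, 26.2% were higher in arrays labelled Tet1, and 26.9% and 37.9% were with equal medians and quantile normalization.

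**Figure D4:**
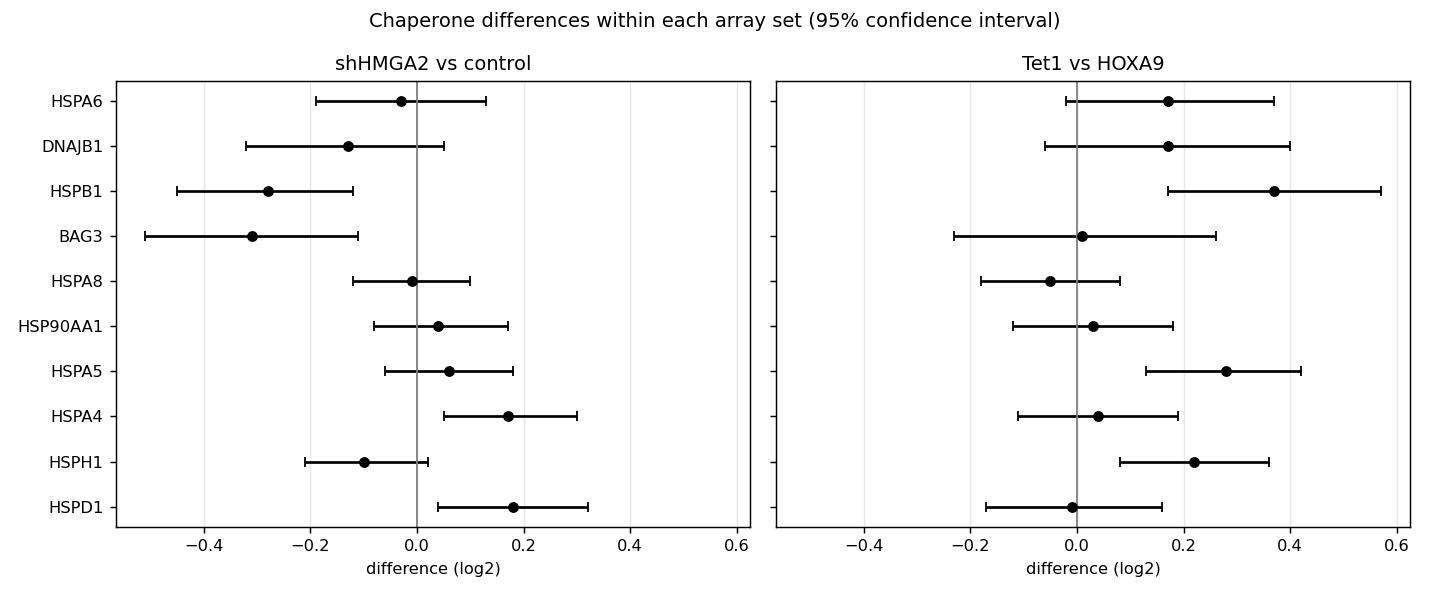
Log2 difference (points) with 95% confidence interval (bars, limma) of the 10 chaperone genes for shHMGA2 against control and for Tet1 against HOXA9, the comparisons that lie within 1 array set. All differences lie between -0.31 and 0.37.

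Beyond the 10 genes, lists of other chaperone and stress genes were read in the same fit, 174 measured of 191 listed. For arrays labelled Tet1, 75 were higher and 54 lower, and for HOXA9 arrays 70 and 49, with medians of 0.08 and 0.07 against 0.25 and 0.24 over all genes. With equal medians the counts were 23 higher and 110 lower for arrays labelled Tet1 and 20 and 120 for HOXA9. With quantile normalization they were 62 and 62, and 53 and 60. The split between higher and lower therefore depends on the scaling, and each list is given with its counts at equal medians as well.

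Metallothioneins, which bind zinc and copper and are induced by metals and oxidative stress, were higher for 10 of 10 in arrays labelled Tet1 and for 8 of 10 in HOXA9 arrays. With equal medians this became 4 higher and 1 lower for Tet1, and 4 and 2 for HOXA9, and with quantile normalization 6 and 1, and 5 and 2. MT1X averaged 12.13 in arrays labelled Tet1, 11.87 in HOXA9 arrays and 10.31 in control arrays (differences 1.82 and 1.56, adjusted p = 1.4e-08 and 4.6e-08). MT1E averaged 11.88 in arrays labelled Tet1, 11.79 in HOXA9 arrays and 10.61 in control arrays (1.27 and 1.18). In shHMGA2 MT1E fell by 0.31 (adjusted p = 0.0014) and the other 9 did not pass.

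Of 6 other measured small heat shock proteins, 4 were higher and 1 lower in both transgene lines, and 0 of 6 passed in shHMGA2. CRYAB (alpha-B crystallin, an HSPB1 relative) read 7.85 and 7.75 in arrays labelled Tet1, 7.10 and 7.17 in HOXA9 arrays, and 5.21, 5.31 and 5.32 in control arrays. It was dim in control and above the dim level in all 4 arrays of the other set. With deposited values and control raised to the dim level, CRYAB was higher by at least 1.53 in arrays labelled Tet1 and at least 0.87 in HOXA9 arrays. The fitted differences were 2.51 and 1.85 (limma, adjusted p = 3.9e-10 and 2.5e-09), and 2.05 and 1.40 at the lowest across alternatives. The bounds were not recomputed under the other scalings. HSPB8, which pairs with BAG3, averaged 5.85 in arrays labelled Tet1 and 5.76 in HOXA9 arrays, both dim, and 7.01 in control arrays (SD 0.45). With deposited values, the HSPB8 level in control was higher than in either line by at least 0.75 (adjusted p = 0.00057 for Tet1 and 0.00034 for HOXA9, for the fitted values). With equal medians the list had 1 higher and 2 lower for Tet1, and 2 and 3 for HOXA9.

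CRYAB and HMOX1 were the 2 genes of the chaperone and stress lists that passed between arrays labelled Tet1 and HOXA9 arrays. HMOX1 encodes heme oxygenase, a classical stress-induced enzyme. It read 9.78 and 9.67 in arrays labelled Tet1, 8.88 and 8.87 in HOXA9 arrays, and 7.95, 8.01 and 7.98 in control arrays. HMOX1 stood 0.85 higher (SE 0.07, adjusted p = 0.00039) and CRYAB 0.66 higher (SE 0.08, adjusted p = 0.0024) in arrays labelled Tet1 than in HOXA9 arrays. The CRYAB call was lost without Tet1 replicate 1 (0.61, adjusted p = 0.073). Among the marker lists, 2 of 8 fibroblast markers also passed in this contrast, COL1A1 (0.56, adjusted p = 0.0084) and COL1A2 (0.46, adjusted p = 0.044), as did 1 of 10 MDA-MB-231 markers, KRT7 (1.02, adjusted p = 0.00039). Summed fibroblast levels were 1920 to 1934 in arrays labelled Tet1 and 1444 to 1514 in HOXA9 arrays, and their part in these differences was not tested.

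Partners of HSP70 went both ways in the transgene lines. Of 9 other exchange factors and BAG genes, 1 was higher and 6 lower for Tet1 and 2 and 6 for HOXA9, and with equal medians 0 and 9 in both. GRPEL2, a mitochondrial exchange factor, differed from control by -1.18 in arrays labelled Tet1 and -1.20 in HOXA9 arrays, and BAG6 by -0.57 in both. Of 36 other J-domain genes, 14 were higher and 12 lower for Tet1, and 13 and 12 for HOXA9. With equal medians these counts were 5 and 25, and 4 and 28. DNAJC11, a mitochondrial J-domain protein, differed by -1.26 and -1.17. Of 9 other HSP70 genes, 3 were higher and 3 lower for Tet1 and 2 and 4 for HOXA9, and with equal medians 2 and 6, and 2 and 7. HSPA13 differed by 0.66 and 0.75, and the HSP110 relative HSPA4L by -0.57 and -0.55.

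HSP90 partners were called higher for 5 and lower for 3 of 12 in arrays labelled Tet1, and for 6 and 2 in HOXA9 arrays. With equal medians 0 were higher in either, and 9 and 8 were lower. FKBP4 and PPID, immunophilins that sit on HSP90 with steroid receptors, were lower by -0.80 and -1.31 in arrays labelled Tet1 and by -0.91 and -1.28 in HOXA9 arrays. HSP90B1, the HSP90 of the endoplasmic reticulum, differed by 0.50 for Tet1 (adjusted p = 1.1e-05) and by 0.03 (adjusted p = 0.67) with equal medians. FKBP4 stood 0.36 higher in shHMGA2 than in control (adjusted p = 0.00062), and TRAP1, the mitochondrial HSP90, 0.37 higher (adjusted p = 0.00069). Averaged over its probe sets, TRAP1 differed by 0.16 and did not pass (adjusted p = 0.088).

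HSPD1 was not alone among mitochondrial genes. Of 14 mitochondrial protein quality genes, 1 was higher and 8 lower in arrays labelled Tet1 and 2 and 7 in HOXA9 arrays. With deposited values HSPE1 went opposite to HSPD1. It was higher by 0.47 for Tet1 (adjusted p = 0.0013) and by 0.35 for HOXA9 (adjusted p = 0.0084). Equal medians shift every gene alike. They took HSP90B1 from 0.50 to 0.03 for Tet1 and HSPA5 from 0.41 to -0.04 for HOXA9. No direction can therefore be given for HSPE1 across the array sets. The lower calls of the mitochondrial list grew to 13 in both with equal medians and were 9 in both with quantile normalization. Lower calls over all 18417 genes also grew with equal medians, from 4270 to 9472 for Tet1 and from 3986 to 9406 for HOXA9. DNAJA3, the mitochondrial J-domain protein, averaged 9.10 in arrays labelled Tet1, 9.12 in HOXA9 arrays and 10.07 in control arrays (differences -0.97 and -0.95). Of 16 chaperonin and prefoldin genes, 6 were higher and 5 lower for Tet1 and 6 and 4 for HOXA9, and 2 and 11 in both with equal medians. PFDN5 differed by 1.30 and 1.18.

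ER stress genes, in which HSPA5 is the best known chaperone, were higher for 17 and lower for 4 of 28 in arrays labelled Tet1 and 14 and 4 in HOXA9 arrays. With equal medians this turned to 4 and 13, and 2 and 16, and with quantile normalization it was 14 and 5, and 12 and 5. SEL1L, part of the machinery that exports misfolded proteins from the endoplasmic reticulum, differed by 0.98 and 0.87 (adjusted p = 1.8e-07 and 4.6e-07). PPP1R15A (GADD34), which restores translation after stress, differed by -0.61 and -0.89. In shHMGA2 3 of the 28 were higher and 5 lower, with SESN2 at 0.65 (adjusted p = 3.1e-05) and EDEM1 at -0.43 (adjusted p = 0.00065).

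Heat shock factors and regulators gave 4 higher and 0 lower of 5 for Tet1 and 3 and 0 for HOXA9, and with equal medians 2 and 1, and 1 and 2. HSF5, a testis factor, averaged 6.55 in arrays labelled Tet1, 6.58 in HOXA9 arrays and 5.76 in control arrays, close to the dim level. HSF1, the master factor, fell by 0.16 in shHMGA2 (adjusted p = 0.043), a call lost without any 1 of the 6 arrays (-0.13 to -0.19, adjusted p 0.063 to 0.15). Of 14 other heat shock response genes, 8 were higher and 3 lower for Tet1, 6 and 4 for HOXA9, and 2 and 5 for shHMGA2. With equal medians these were 3 and 6, 2 and 8, and 2 and 5. ATF3, a stress transcription factor, differed by 1.06 and 0.81 in the transgene lines, and ZFAND2A, a heat-induced proteasome adaptor, fell by 0.38 in shHMGA2 (adjusted p = 0.004). Proteasome subunits gave 7 higher and 13 lower of 28 for Tet1 and 9 and 10 for HOXA9, and 1 higher and 23 lower in both with equal medians. PSMB1 differed by 0.67 and 0.88 (0.20 and 0.43 with equal medians), and PSMD3 by -0.77 and -0.78 (-1.24 and -1.23).

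In shHMGA2 the lists gave 21 higher and 21 lower of 174, with a median of -0.04 against -0.03 over all genes. DNAJC12, a J-domain protein that serves aromatic amino acid hydroxylases, averaged 7.77 in shHMGA2 arrays against 6.21 in control arrays, where it was dim. With deposited values and control raised to the dim level, DNAJC12 was higher by at least 1.49. The fitted difference was 1.55 (limma, adjusted p = 2.7e-07), and 1.44 at the lowest across alternatives. Without shHMGA2 replicate 3 the lists had 24 calls in place of 42.

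**Figure D5:**
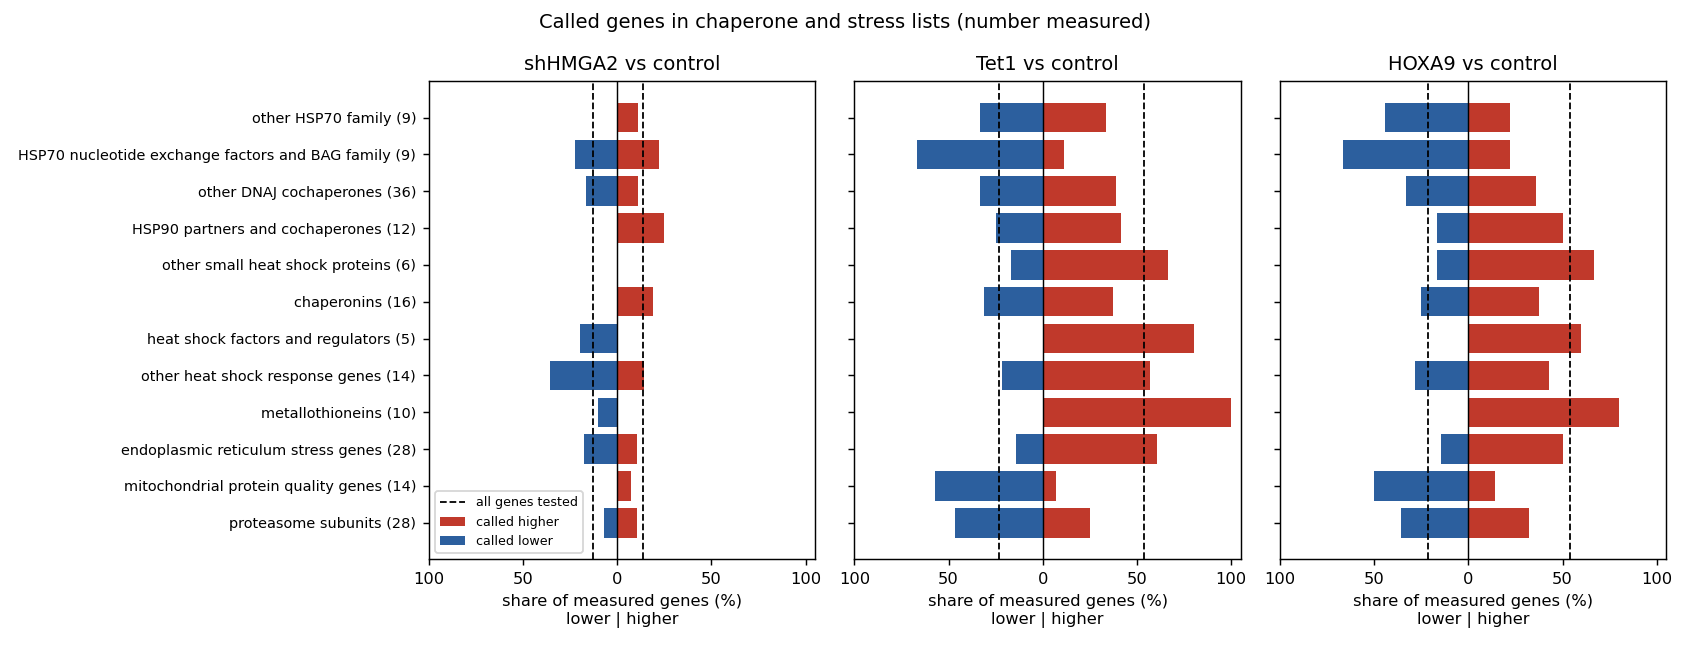
Share of measured genes called higher (right) and lower (left) in each chaperone and stress list for each comparison with control, with dashed lines at the share over all genes. Metallothioneins are higher for 10 of 10 genes in Tet1 and 8 of 10 in HOXA9, while mitochondrial quality genes are lower for 8 and 7 of 14.

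The genes most like HSPA6 over the 10 arrays were KRTAP3-2, CALHM6, STAB1, ISX and SNORA3A, each with a Pearson correlation of 0.999. CALHM6, for example, averaged 8.04 in arrays labelled Tet1, 8.01 in HOXA9 arrays, 5.98 in shHMGA2 arrays and 6.06 in control arrays. These points share 1 step between the 2 array sets, so the correlation describes that step.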

How the data were processed

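The deposited table gives log2 intensities for 12 columns and 33297 probe sets. Per the submitters' processing notes, RMA and R 2.11 were used; the sources do not give whether the arrays entered RMA as 1 batch. Replicate 3 in the Tet1 and in the HOXA9 group is the average of the other 2 columns of their group at each of the 33297 probe sets (tolerance 1e-06). These were left out, which left 10 arrays. In the platform annotation, 19460 probe sets carry a single symbol, 1754 carry more than 1 and 12083 carry none. The probe set with the highest mean stood for each of 18417 genes, and all 10 member symbols were unchanged through their Entrez IDs. A limma 3.58.1 model of 4 group means (lmFit and eBayes, two-sided) was fitted in R 4.3.3 with 6 residual and 5.65 prior degrees of freedom. Benjamini-Hochberg adjustment ran over all genes of a comparison, and genes were called at 0.05. Intervals are 95%. Where a group mean lay at or near the dim level, a bound was computed with that group's deposited values raised to the level. The level is a percentile and not a detection call. For HSPA6 the raised values left the fitted differences unchanged, so they are given as estimates and not as bounds. Arrays carry no count of reads, so their number limits the precision.

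The members, the lists and the tests were chosen with earlier results of these data known. From each list up to 2 rising and 2 falling genes per comparison were eligible to be named, those with the largest change among called genes whose groups do not overlap, and some of these were left out. CALHM6 and the other genes most like HSPA6 were the 5 with the highest Pearson correlation. The fit was tested on simulated data. Alternatives were equal array medians, 1 quantile normalization, no dim genes, all 12 columns, a replicate block, only the groups compared, the mean over probe sets, trended and robust variance, all probe sets and leaving out each array. The dim filter for probe sets shared by several genes was added after the data were seen.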

Additional observations from a re-analysis of the deposited data

How the results depend on the processing

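Across alternatives, 605 of 618 values for HOXA9 against control, 603 of 618 for Tet1 against control, 417 of 483 for shHMGA2 against control and 199 of 222 for Tet1 against HOXA9 kept direction and side of the threshold. These values pool the members, genes named from the lists and the shared heat shock probe sets. The named genes were picked among called genes with large changes, so the counts do not measure how stable the members are. For Tet1 and HOXA9 against control, most values that changed were of members. For Tet1 against control the sign turned with equal medians for HSPA8 (-0.08), HSP90AA1 (-0.21) and BAG3 (-0.14), and with quantile normalization for HSPA8 (-0.05) and HSP90AA1 (-0.02). For HOXA9 against control it turned with equal medians for HSPA8 (-0.02), HSPA5 (-0.04), HSP90AA1 (-0.23) and BAG3 (-0.14), and with quantile normalization for HSP90AA1 (-0.06). HSPD1 turned to 0.02 for Tet1 against HOXA9 with quantile normalization. With 1 array left out, differences near 0 crossed it for HSPA6 in shHMGA2 against control (-0.10 to 0.02) and, for Tet1 against HOXA9, for HSPA4 (-0.01 to 0.08), HSP90AA1 (-0.03 to 0.10), HSPD1 (-0.07 to 0.06) and BAG3 (-0.06 to 0.09). The cause was not tested. Called members for shHMGA2 against control numbered 3, and 1 in the fit of these 2 groups only, 1 over all probe sets, and 0 to 4 with an array left out. Listed genes called there numbered 42, and 64 with all 12 columns and 24 to 41 with an array left out. All features called numbered 14197 for Tet1 and 13938 for HOXA9 against control, and 24412 and 23847 over all probe sets, where more features were tested. For Tet1 against HOXA9, 0 members passed, and 3 did with all 12 columns (which count averages as replicates) and 1 with trended and robust variance. In that contrast 80 genes passed, and 145 with quantile normalization, 1112 with all 12 columns, 143 in the fit of 2 groups only and 11 to 72 with an array left out. Listed genes numbered 2, and 15 with all 12 columns and 1 to 2 with an array left out. Members called with an array left out numbered 7 to 10 for Tet1 against control, 7 of them without Tet1 replicate 1, and 8 to 10 for HOXA9. In a group left with 1 array, that array was assumed to vary like the other groups.

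The titles number the replicates without naming a pairing, and the values cannot decide it. Deviations of same-numbered arrays correlated at 0.12, 0.13 and 0.01 for shHMGA2 with control (best other number 0.02, -0.03 and 0.03). They correlated at 0.02 and -0.01 for Tet1 with control (others 0.01 and 0.03), and at 0.05 and -0.17 for HOXA9 with control (others 0.17 and 0.2). For Tet1 with HOXA9 they gave 0.15 and 0.15. There the deviations of 2 arrays mirror each other, so this is 1 value. With the replicate number as a block, called members numbered 3, 9, 10 and 0 for shHMGA2, Tet1 and HOXA9 against control and Tet1 against HOXA9, all genes 4885, 14093, 13805 and 69, and listed genes 39, 129, 117 and 2. With 2 arrays in each transgene group and no group in both array sets, differences near the array-set step cannot be attributed.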
